A study of Mus musculus with 6 samples.

Results

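The miR-15/16 family was examined in mouse intestine during experimental necrotizing enterocolitis (NEC), a disease in which the bowel wall of newborns becomes inflamed and dies. The family is the group of miRNAs that share the bases AGCAGCA at positions 2 to 8, the seed through which a miRNA pairs with its target mRNAs. Its members were chosen by name, with the NEC and Control values of these libraries already known: mmu-miR-15a-5p, mmu-miR-15b-5p, mmu-miR-16-5p, mmu-miR-195a-5p, mmu-miR-497a-5p and mmu-miR-322-5p, written below without the species prefix. All 6 were found among the 604 miRNAs of the deposited table, and all 6 passed the minimum for testing, a log2 value of 3.32 or more in at least 3 libraries, as did 386 of the 604. The study sequenced small RNA of the intestine of wild-type C57BL/6J pups at 50 nt, with 3 NEC and 3 Control libraries. From day 5, NEC pups received 40 μl of 33% formula by gavage at intervals of 4 h over 96 h, and were placed in 99.9% N2 for 100 s and then at 4 °C for 10 min, once in each 12 h. Control pups stayed with the dam and had neither stress, and the labels name PBS as their treatment, and formula with PBS as that of NEC pups. The sources used here do not say if the libraries of a group are separate pups, so the p-values refer only to variation from library to library, possibly technical. Bulk tissue was measured, so fewer cells of a type and less RNA per cell cannot be told apart.

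Members of this family are known to restrain the cell cycle. They repress mRNAs of cyclins, cyclin-dependent kinases and checkpoint kinases such as Ccnd1, Ccne1, Cdk6, Chek1 and Wee1, and miR-15a and miR-16 are also known for repressing the survival gene Bcl2. A pri-miRNA transcript is cut to a hairpin and the hairpin to a duplex, of which 1 strand, the guide, is kept and the other, the passenger, is mostly degraded. In the mouse the family comes from 4 clusters. In mouse heart, miR-195a is known to slow the division of cardiomyocytes after birth, and miR-322, the counterpart of human miR-424, is known from muscle differentiation.

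The mature sequences follow, since the shared seed defines the family and the remaining bases part its members. They are RefSeq sequences of GRCm38.p6, 5′ to 3′, with the seed in capitals, and all 6 members matched by name.
miR-16-5p: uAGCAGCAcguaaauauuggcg
miR-195a-5p: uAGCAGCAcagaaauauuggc
miR-15a-5p: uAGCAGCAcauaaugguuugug
miR-15b-5p: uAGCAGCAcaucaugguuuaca
miR-497a-5p: cAGCAGCAcacugugguuugua
miR-322-5p: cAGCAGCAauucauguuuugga

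Position by position, miR-16-5p and miR-195a-5p were the most alike pair, identical at 19 of the 21 positions compared, and miR-15a-5p and miR-15b-5p were identical at 18 of 22. The least alike pairs shared 11 positions, of 22 between miR-16-5p and miR-497a-5p and of 21 between miR-195a-5p and miR-322-5p. The sources used here do not say how reads were assigned between near-identical miRNAs, so the split of reads between miR-16-5p and miR-195a-5p is uncertain. RefSeq holds 10 mature mouse miRNAs with this seed. The remaining 4, miR-195b, miR-6342, miR-6353 and miR-6419, were not used here.

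The hairpins lie in 4 pairs on GRCm38. Mir15a (chromosome 14, 61632027 to 61632110) and Mir16-1 (61631880 to 61631972) are 54 bases apart on the minus strand, inside the non-coding gene Dleu2, Mir15a in an intron and Mir16-1 overlapping an annotated exon. Mir15b (chromosome 3, 69009772 to 69009835) and Mir16-2 (69009902 to 69009996) are 66 bases apart on the plus strand, in an intron of Smc4, which codes for a condensin subunit needed in mitosis. Mir497 (chromosome 11, 70234717 to 70234800) and Mir195a (70235042 to 70235135) are 241 bases apart on the plus strand, and Mir322 (chromosome X, 53054255 to 53054349) and Mir503 (53053984 to 53054054) are 200 bases apart on the minus strand. No gene of the annotation other than a miRNA gene spans these last pairs. The mature miR-16-5p is the same from Mir16-1 and Mir16-2, so its value sums both loci. The passenger arms tell the loci apart, and are shown with bases 2 to 8 in capitals.
miR-16-1-3p: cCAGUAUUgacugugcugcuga
miR-16-2-3p: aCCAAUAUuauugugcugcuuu
miR-15a-3p: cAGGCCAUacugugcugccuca
miR-15b-3p: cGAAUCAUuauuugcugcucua

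The table holds normalized log2 values and no counts. Library depth is therefore unknown. How the log2 values were made is not stated, so a log2 difference here need not equal a fold change of reads. The library medians were 4.78 to 5.01. The library codes in the labels form number ranges, called code series 1 (NEC replicates 2 and 3, Control replicates 1 and 2) and code series 2 (NEC replicate 1, Control replicate 3). The first principal component, which held 74.2% of the variance, parted the code series. The epithelial markers miR-192-5p, miR-194-5p, miR-215-5p and the miR-200 family were all present, with a summed log2 level of 18.27 to 19.01 in NEC and 18.35 to 19.18 in Control. The most abundant of them weigh most in this sum. Of these 8 markers, 1 had NEC values below all Control values (4.92% of all miRNAs tested). This was miR-429-3p, at 12.15, 11.96 and 12.06 in NEC, against 12.50, 12.56 and 12.40 in Control (log2 difference -0.43, standard error 0.22). The neuronal pair miR-9-5p and miR-124-3p summed to 5.75 in NEC replicate 1 and to 2.28 to 2.41 in each other library. The higher sum came from miR-9-5p, at 5.675 in NEC replicate 1 against 1.356 to 1.449 in the others. miR-124-3p lay under 3.32 in every library and differed little between them. Neither miRNA passed the minimum for testing.

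The family formed a ladder of levels in every library, with miR-16-5p at the top. Averaged over the 6 libraries, the log2 value was 10.24 ± 0.41 (SD, n = 6) for miR-16-5p, the 76th of the 604 miRNAs by mean. It was 8.37 ± 0.46 for miR-15b-5p, 7.33 ± 0.51 for miR-195a-5p and 6.88 ± 0.42 for miR-322-5p. At the bottom, miR-497a-5p was at 6.01 ± 0.57 and miR-15a-5p at 5.91 ± 0.51, and these neighbours did not differ beyond their spread: their gap was 0.10 ± 0.23 and kept its direction in 4 of 6 libraries. The other 4 gaps between neighbours had the same direction in 6 of 6 libraries, the smallest being that of miR-195a-5p over miR-322-5p, 0.45 ± 0.23. The members are 21 or 22 bases long. In back-transformed values, miR-16-5p made up 61.3% to 64.6% of the family in NEC libraries and 58.0% to 64.4% in Control libraries. The whole family held 0.0855%, 0.0924% and 0.0945% of the back-transformed total in NEC replicates 1, 2 and 3, against 0.161%, 0.141% and 0.0911% in Control replicates 1, 2 and 3. The Control library of code series 2 thus sat among the NEC libraries on this share.

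The comparison of NEC with Control shows how each member stood in the injured intestine. Since the members were picked with this contrast in view, the values are a description and carry no test. The mean of every member was lower in NEC (6 of 6, against 48.2% of the 386 miRNAs tested), and nothing is read from that count. The median log2 difference of the family was -0.54, and over all 386 miRNAs it was 0.01.

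The pair from chromosome 11 had the lowest differences with all 6 libraries, but without Control replicate 3 that of miR-497a-5p was -0.58, against -0.82 for miR-15b-5p and -0.64 for miR-16-5p. For miR-195a-5p, the log2 values were 7.21, 6.66 and 6.90 in NEC replicates 1 to 3, against 8.07, 7.53 and 7.59 in Control replicates 1 to 3. Every NEC value lay below every Control value. Its cluster mate miR-497a-5p had 6.11, 5.30 and 5.44 in NEC, against 6.27, 6.12 and 6.84 in Control. Here too the groups did not overlap, but only by 0.01 between NEC replicate 1 and Control replicate 2. The log2 differences were -0.81 (standard error 0.27 from limma) and -0.80 (standard error 0.33). No overlap with NEC lower was seen in these 2 of the 6 members and in 4.92% of all miRNAs tested (9.84% in either direction), and this count too describes the choice of members. The gap of miR-195a-5p over miR-497a-5p was 1.31 ± 0.19 in NEC and 1.32 ± 0.53 in Control (SD, n = 3 each). This gap differed by -0.19 between NEC and Control in code series 1 and by 0.35 in code series 2.

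The members encoded in Dleu2 and Smc4 had lower NEC means, with groups that overlapped. The abundant miR-16-5p was at 10.17, 9.78 and 10.05 in NEC, against 11.00, 10.29 and 10.13 in Control. One Control library, replicate 1, stood far above all the others. For miR-15b-5p the values were 7.92, 8.23 and 8.17 in NEC, against 9.14, 8.70 and 8.05 in Control, and Control replicate 3 fell within the NEC range. For miR-15a-5p they were 6.35, 5.12 and 5.57 in NEC, against 5.98, 5.90 and 6.53 in Control, and NEC replicate 1 was higher than Control replicates 1 and 2. The log2 differences were -0.47 (standard error 0.30), -0.52 (standard error 0.32) and -0.45 (standard error 0.37) for miR-16-5p, miR-15b-5p and miR-15a-5p. Single libraries carried much of them. Without Control replicate 1 the difference was -0.21 for miR-16-5p and -0.27 for miR-15b-5p. Without NEC replicate 2 that of miR-15a-5p was -0.17, without Control replicate 3 it was -0.26, and without NEC replicate 1 it was -0.79. For miR-15b-5p it was -0.82 without Control replicate 3.

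The X-linked miR-322-5p had log2 values of 7.09, 6.34 and 6.37 in NEC, against 7.30, 6.95 and 7.21 in Control. The NEC libraries of code series 1 stood apart below all others, while NEC replicate 1 lay inside the Control range. The log2 difference was -0.55 (standard error 0.29). The neighbour from the same cluster, miR-503-5p, which shares the seed except for its last base, was at 5.53, 5.04 and 4.92 in NEC, against 5.01, 5.17 and 5.93 in Control (log2 difference -0.21, standard error 0.33).

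In limma, none of the 386 miRNAs (0%) passed an adjusted p under 0.05 between NEC and Control. An unadjusted p under 0.05 was found for 11 miRNAs (2.85%), of which 4 (1.04%) were lower in NEC. Once the code series entered the limma model, 70 miRNAs (18.1%) were under an unadjusted p of 0.05 and again none (0%) under an adjusted one (smallest 0.109).

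**Figure D1:**
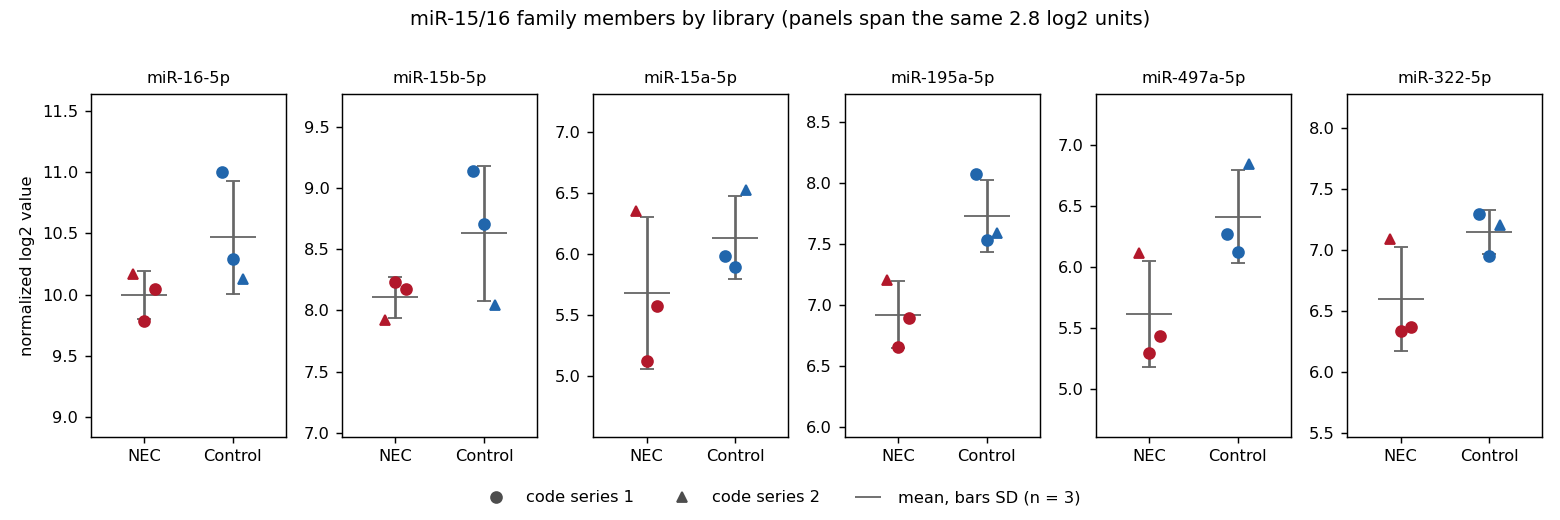
Normalized log2 value of each family member in 3 NEC (left, red) and 3 Control (right, blue) libraries, circles for code series 1 and triangles for code series 2, with the group mean and SD. For miR-195a-5p and miR-497a-5p every NEC library lies below every Control library, and in the other 4 panels a library of code series 2 lies in the range of the other group.

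Within the code series the members did not all show the same size of difference. In code series 1, both NEC libraries lay below both Control libraries for all 6 members, as for 23.6% of the 386 miRNAs, and the family median was -0.75, against -0.0024 over all miRNAs. With 1 library a group in code series 2, the family median was -0.15, against -0.02 over all miRNAs. The members' differences in code series 1 ran from -1.02 for miR-195a-5p to -0.59 for miR-15a-5p. Those in code series 2 ran from -0.73 for miR-497a-5p to 0.03 for miR-16-5p, and miR-16-5p was the one member that was not lower in NEC there. Lower in both code series were 5 of the 6 members, as were 33.4% of all miRNAs. The difference was smaller in code series 2 for all 6, least so for miR-497a-5p, with -0.73 there and -0.83 in code series 1. The share of all miRNAs for which this held is not given here, so nothing is read from that count. miR-17-3p, not a member, also had a smaller difference in code series 2 (-0.01, against -0.71 in code series 1). Among the members, the difference in code series 2 minus that in code series 1 was largest for miR-16-5p, at 0.76 with a standard error of 0.45. It was smallest for miR-497a-5p, at 0.10 with a standard error of 0.34. These too are a description, since they are made of the contrast that chose the members. As an interaction term in limma over all 386 miRNAs, 0% passed an adjusted p under 0.05 and 15 (3.89%) had an unadjusted p under 0.05, with 2 residual degrees of freedom and 1 library a group in code series 2.

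**Figure D2:**
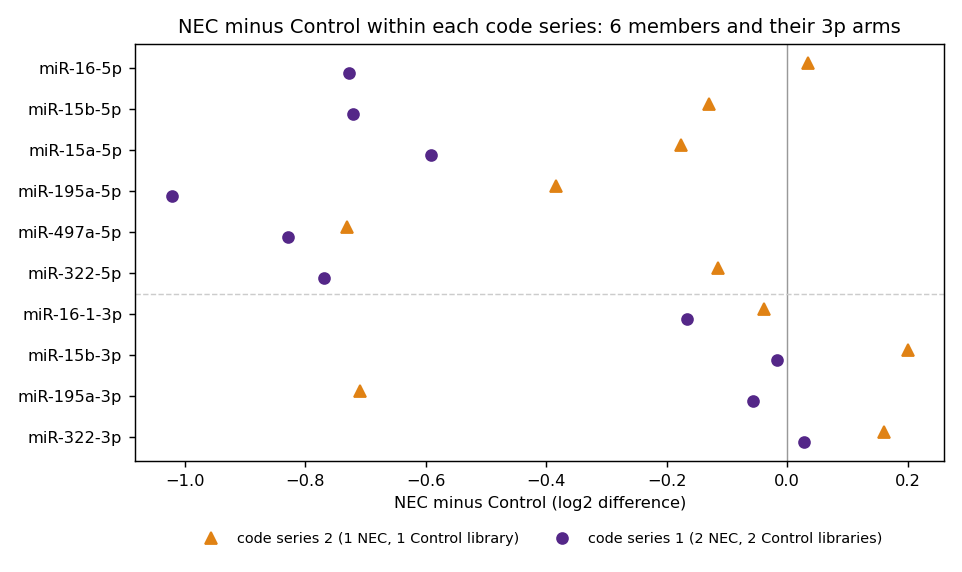
NEC minus Control on the log2 scale within code series 1 (circles, difference of means of 2 and 2 libraries) and code series 2 (triangles, 1 and 1 library), for the 6 members above the dashed line and 3p arms of their hairpins below it. The circles of the members lie between -1.02 and -0.59, those of the 3p arms between -0.17 and 0.03.

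The 4 tested 3p arms of the members' hairpins had log2 differences of -0.27 to 0.07 between NEC and Control, against -0.81 to -0.45 for the members, and whether arms and members differed in this was not tested. For miR-195a-3p, the log2 values were 4.99, 5.91 and 5.52 in NEC, against 5.65, 5.89 and 5.70 in Control, which is a difference of -0.71 in code series 2 and of only -0.06 in code series 1. This arm thus differed most where its guide miR-195a-5p differed least. For miR-16-1-3p, the strand that marks the Dleu2 locus, the values were 8.11, 6.41 and 7.03 in NEC, against 6.91, 6.87 and 8.15 in Control (log2 difference -0.12, standard error 0.53). For miR-15b-3p from Smc4 they were 3.50, 4.85 and 5.11 in NEC, against 5.24, 4.75 and 3.30 in Control (log2 difference 0.06, standard error 0.61). In both arms the libraries of code series 2 stood apart from the rest. The arms miR-15a-3p and miR-16-2-3p lay under the minimum for testing, at 1.42 to 2.07 and 1.51 to 3.21 in NEC, against 1.23 to 2.48 and 1.72 to 3.20 in Control. No value for miR-497a-3p was used here.

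In the Mir322 hairpin the 3p arm was the more abundant one. miR-322-3p was at 10.08, 9.40 and 9.48 in NEC, against 9.70, 9.13 and 9.92 in Control (log2 difference 0.07, standard error 0.32), so that the arm with the family seed was the less abundant product of its own hairpin in all 6 libraries. The value of miR-322-5p minus that of miR-322-3p was -2.99, -3.07 and -3.11 in NEC, against -2.40, -2.18 and -2.72 in Control. The groups did not overlap, with means of -3.06 ± 0.06 in NEC and -2.43 ± 0.27 in Control (SD, n = 3 each). The same arm order held for Mir503, with miR-503-5p below miR-503-3p in every library. For Mir195a the 5p arm exceeded the 3p arm by 2.21, 0.75 and 1.38 in NEC, against 2.42, 1.64 and 1.89 in Control, with groups that overlapped. For Mir15b the gap was 4.42, 3.38 and 3.06 in NEC, against 3.90, 3.95 and 4.75 in Control. Each gap uses the member's own value, so none of these is independent of the choice of members. How often the arm gap parted the groups in hairpins outside these clusters was not examined.

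**Figure D3:**
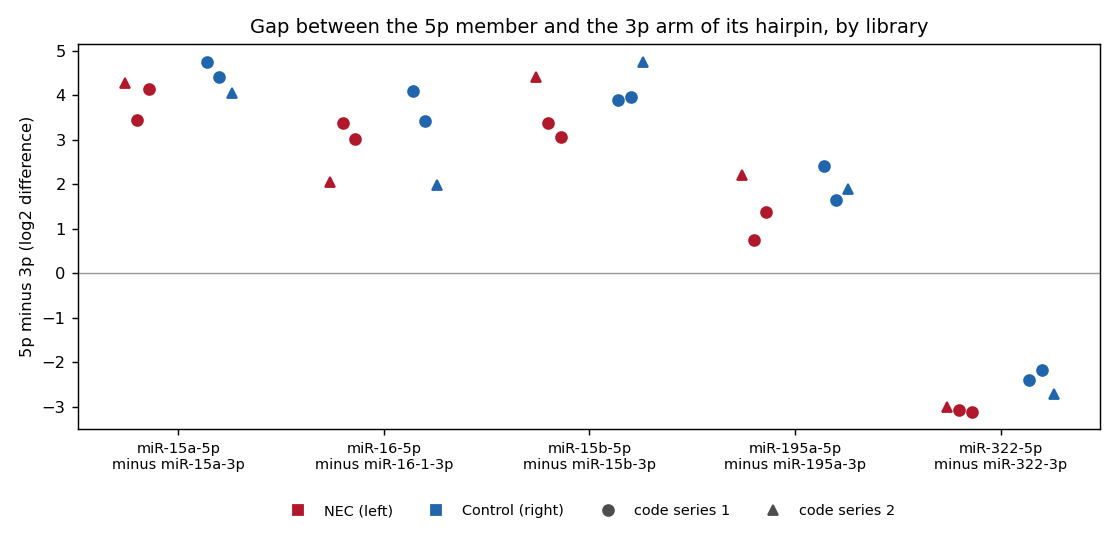
Difference between the 5p member and the 3p arm of its hairpin on the log2 scale, by library, NEC (left, red) and Control (right, blue), circles for code series 1 and triangles for code series 2. The gap of the Mir322 arms lies below 0 in all 6 libraries and between -3.11 and -2.99 in NEC, below all Control values, and the other gaps lie above 0 with overlapping groups.

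The contrast between the code series was not used to choose the members, so limma was used to test it in a model that also held the condition. Of the 6 members, 3 passed an adjusted p under 0.05, as did 57.5% of all miRNAs tested, so the members differed between the code series about as often as other miRNAs. Of these, 2 were higher in code series 2 (25.4% of all miRNAs) and 1 was lower (32.1%). The guide miR-15a-5p was at 6.35 and 6.53 in code series 2, against 5.12, 5.57, 5.98 and 5.90 in code series 1. Both values lay above all of code series 1 (limma: difference 0.79 on the log2 scale, standard error 0.19, adjusted p = 0.00916). For miR-497a-5p, at 6.11 and 6.84 in code series 2, against 5.30, 5.44, 6.27 and 6.12 in code series 1, the values overlapped and the log2 difference was 0.70 (standard error 0.15, adjusted p = 0.00538 from limma). Its relative miR-15b-5p went the other way, at 7.92 and 8.05 in code series 2, against 8.23, 8.17, 9.14 and 8.70 in code series 1 (log2 difference -0.58, standard error 0.20, adjusted p = 0.0394 from limma). No call was made for miR-322-5p (0.41, standard error 0.20, adjusted p = 0.108), miR-195a-5p (0.11, standard error 0.22, adjusted p = 0.692) or miR-16-5p (-0.13, standard error 0.26, adjusted p = 0.688, turning to 0.029 with libraries shifted by their median deviation).

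These calls rested on few libraries. The median difference over all 386 miRNAs between the code series was -0.19. With each library shifted by its median deviation, the call of miR-15b-5p was lost (log2 difference -0.42, adjusted p = 0.0956 from limma) and miR-322-5p was called instead (0.57, adjusted p = 0.0335). Without NEC replicate 1, the adjusted p was 0.112 for miR-15a-5p and 0.0633 for miR-497a-5p, and miR-15b-5p alone was called. The call of miR-15b-5p was also lost without Control replicate 1, Control replicate 3, NEC replicate 2 or NEC replicate 3, at adjusted p of 0.0581, 0.402, 0.0756 and 0.0599 from limma, and with no filter on low values, at 0.0503. With no condition term in the limma model, the calls of miR-497a-5p (adjusted p = 0.103) and miR-15b-5p (adjusted p = 0.110) were both lost. With Control replicate 1 left out, miR-322-5p was called (adjusted p = 0.0342). Its log2 difference was 0.083 without NEC replicate 1 and 0.74 without Control replicate 3.

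Neighbours from 1 cluster had differences of opposite sign between the code series. From Smc4, miR-15b-3p was lower in code series 2, at 3.50 and 3.30, against 4.75 to 5.24 in code series 1 (log2 difference -1.59, standard error 0.19, adjusted p = 0.000641 from limma). Its neighbour miR-16-2-3p was at 3.21 and 3.20 in code series 2, against 1.51 to 1.76 in code series 1, but lay under the minimum for testing. From Dleu2, miR-16-1-3p was higher in code series 2, at 8.11 and 8.15, against 6.41 to 7.03 (log2 difference 1.32, standard error 0.20, adjusted p = 0.0015 from limma). From the X-linked cluster, miR-322-3p (0.58, adjusted p = 0.0336), miR-503-5p (0.70, adjusted p = 0.00677), miR-450a-5p (1.14, adjusted p = 0.00125), miR-450b-5p (1.75, adjusted p = 0.000138) and miR-542-3p (1.91, adjusted p = 0.000994) were higher in code series 2, and miR-351-5p was lower (-0.93, adjusted p = 0.00192). Of the 11 tested neighbours in the 4 clusters, 6 were called higher (25.4% of all miRNAs tested) and 2 lower (32.1%) in code series 2, and nothing particular to these clusters is read from 11 miRNAs.

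**Figure D4:**
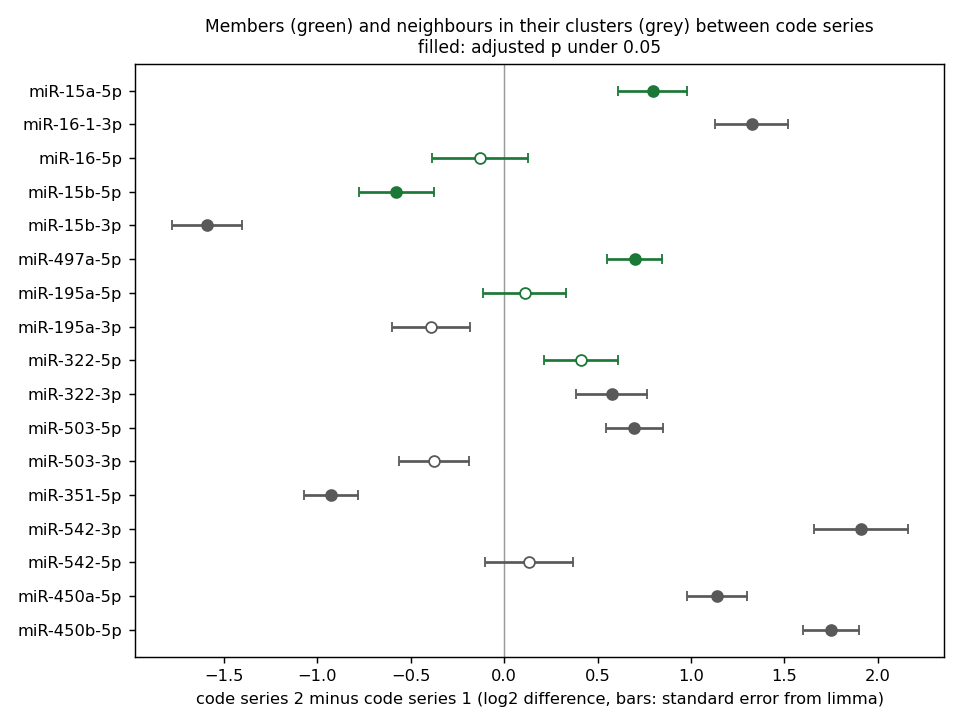
Code series 2 minus code series 1 on the log2 scale with its standard error from limma (condition as covariate), for the 6 members (green) and tested neighbours from the same clusters (grey), filled where the adjusted p was under 0.05. Values run from -1.59 for miR-15b-3p to 1.91 for miR-542-3p, and miR-16-5p, miR-195a-5p and miR-322-5p are open.

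Other miRNAs known for the cell cycle were set beside the family, from a list written with earlier results known. Among 13 tested miRNAs that restrain it (let-7, miR-98, miR-34 and miR-26), 12 had a lower mean in NEC (48.2% of all miRNAs tested did), with a median log2 difference of -0.27. For 2 of them the NEC values lay below all Control values (4.92% of all miRNAs tested), miR-98-5p (-0.29) and miR-34c-5p (-0.36). For miR-98-5p the groups nearly touched, at 8.588 in NEC replicate 3 and 8.595 in Control replicate 2. The most abundant of the list, let-7i-5p and let-7g-5p, had log2 differences of -0.19 (standard error 0.25) and -0.16 (standard error 0.24). Its lowest differences were those of miR-26b-5p (-0.60, standard error 0.43), miR-26a-5p (-0.49, standard error 0.36) and let-7b-5p (-0.47, standard error 0.45), with overlapping groups. These lay within the members' range of -0.81 to -0.45. In code series 1 they were -0.83, -0.75 and -0.59. Among 12 tested miRNAs that promote the cell cycle (miR-17-5p, miR-106b-5p and their cluster mates and paralogs, miR-221-3p and miR-222-3p), 9 had a lower mean in NEC, again beside 48.2% of all miRNAs, with a median of -0.20. Their most abundant members, miR-25-3p and miR-92a-3p, had 0.05 (standard error 0.39) and -0.18 (standard error 0.41). The restraining and the promoting list thus both had more lower than higher means. None of these miRNAs passed the adjusted p between NEC and Control in limma. miR-103-3p and miR-107-3p carry the same 7 bases moved by 1 position. Values were 12.44, 12.64 and 12.55 in NEC, against 12.85, 12.69 and 12.64 in Control for miR-103-3p, and 12.66, 13.10 and 13.19 in NEC, against 13.14, 12.85 and 12.95 in Control for miR-107-3p.

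The miRNAs whose pattern over the 6 libraries was most like the mean of the members were found by the root mean square difference of log2 values, each centred on its own mean. The nearest was miR-17-3p (0.12), the passenger arm of the hairpin of miR-17-5p, which is known for promoting the cell cycle. It was followed by miR-582-3p, miR-326-3p, miR-872-3p and the epithelial miRNA miR-429-3p, at 0.18 to 0.19, and the median over all others was 0.53. miR-17-3p was at 4.52, 3.94 and 3.92 in NEC, against 4.70, 4.57 and 4.53 in Control. After centring within each code series, miR-652-3p came first (0.10), followed by miR-700-3p, miR-500-3p, miR-23b-3p and miR-17-3p, all at 0.11 to 0.12. Among the members, miR-322-5p lay nearest to the family mean by either centring, at 0.11 and 0.06. Farthest were miR-15b-5p (0.38) over the 6 libraries and miR-497a-5p (0.16) within the code series.

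Markers of other cell types were checked beside these values, since miR-16-5p and miR-15b-5p are abundant in blood cells. All 4 red blood cell miRNAs were present, with a summed log2 level of 10.41 to 10.65 in NEC and 10.02 to 10.49 in Control. The 3 tested, miR-451a, miR-486a-5p and miR-486b-5p, had higher means in NEC, while 48.2% of all miRNAs tested had lower ones. Their log2 differences were 0.35 (standard error 0.30), 0.33 (standard error 0.37) and 0.33 (standard error 0.38). Of 4 leukocyte miRNAs tested, 3 had lower means in NEC (48.2% of all miRNAs tested did), with a sum of 8.51 to 9.51 in NEC and 8.71 to 9.86 in Control. Among them, miR-150-5p, known from mature lymphocytes and named here after its values were seen, was at 6.31, 6.40 and 6.92 in NEC, against 8.22, 7.20 and 7.21 in Control. Its groups did not overlap, as in 4.92% of all miRNAs tested with NEC lower. Its log2 difference of -1.003 (standard error 0.36) was lower than that of any member. The other leukocyte miRNAs tested, miR-342-3p, miR-223-3p and miR-155-5p, had -0.09 (standard error 0.51), -0.14 (standard error 0.24) and 0.31 (standard error 0.34). For miR-150-5p the difference was -1.05 within code series 1, and the single pair of code series 2 gave -0.90. Of 5 smooth muscle and mesenchymal miRNAs, 3 had lower means, again beside 48.2% of all miRNAs, with a sum of 18.65 to 18.93 in NEC and 18.76 to 19.43 in Control. None of these markers was at 0. Control replicate 1, where the members miR-16-5p, miR-15b-5p, miR-195a-5p and miR-322-5p were highest, also had the highest smooth muscle and leukocyte sums. Not all markers of these lists did so. miR-143-3p (19.39), miR-145a-5p (13.85), miR-214-3p (9.42) and miR-150-5p (8.22) were highest in that library. But miR-199a-5p (10.34) was lowest there, and miR-199a-3p, miR-342-3p, miR-155-5p and miR-223-3p were each higher in another library. The part of these cells in the members' values was not tested.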

How the data were processed

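Small RNA libraries of intestine, 3 NEC and 3 Control, were analysed. The authors deposited 1 table of normalized log2 values for 604 miRNAs, and its columns were matched to libraries by the codes in the labels. The study names DESeq2, and the submitters' processing notes name mm10. The aligner, counter, annotation and log2 transformation were not given in the sources used here. All value columns were matched (0 left over). There are no counts, so depth is unknown and no counting interval is given.

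miRNAs at 3.32 or more on the log2 scale (a back-transformed 10) in at least 3 libraries were tested: 386. limma (version 3.58.1, R version 4.3.3) was run on the deposited values, two-sided, with Benjamini-Hochberg adjustment over all 386, for NEC against Control, for code series 2 against code series 1 with the condition as a covariate, and for their interaction. The fits that held the code series were tried on simulated data, with independent normal noise of the same SD for all miRNAs. No recovery was required of the interaction fit there, so how large an interaction it can call is not shown. The members and all lists were chosen with earlier results of these data known. The miRNAs named are all members, the neighbours in their 4 clusters, the seed relatives, the 2 most abundant of each cell cycle list (miR-98-5p, miR-34c-5p and the leukocyte miR-150-5p were named after their values were seen), the 5 nearest patterns and markers of cell types. So were miR-26a-5p, miR-26b-5p and let-7b-5p, and the values of miR-429-3p were likewise given after they were seen. Sequences came from RefSeq (GRCm38.p6) and hairpin coordinates from GENCODE M21 (GRCm38).

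The alternatives were library scaling (median deviation, or 1 common 75th percentile), the filter (none, or 5.64, which is a back-transformed 50), log2 of the back-transformed value plus 1, robust moderation, each library left out once, a block for the replicate number, and the terms of the model (code series added, code series 1 alone, condition removed).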

Additional observations from a re-analysis of the deposited data

How the results depend on the processing

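Depth is unknown and each group has 3 libraries, so single libraries move the values. All 90 NEC minus Control differences of the members under 15 alternatives stayed below 0, between -1.04 and -0.17. The filters, robust moderation, the replicate block and adding the code series to the model cannot move these differences. Since the members were chosen with this contrast known, nothing is read from that count. The family median was -0.50 to -0.79 with 1 library left out. limma called 0 miRNAs between NEC and Control under 14 of these alternatives and 2 in code series 1 alone, neither of them a member. Replicate numbers did not pair the libraries (correlation of same-numbered deviations -0.69, 0.73 and -0.78). With them as a block, limma called 0 and the median was -0.54, which a block cannot move in this design. Between the code series, the difference of miR-16-5p turned to 0.029 with libraries shifted by their median deviation, and ran from -0.51 to 0.25 with 1 library left out. That of miR-195a-5p ran from -0.21 to 0.43. The share of miRNAs called, 57.5%, became 32.6% to 54.9% with 1 library left out, lowest without NEC replicate 1 (32.6%) and Control replicate 3 (35.2%). The 3 members called became 1 to 3, and 1 with no condition term. The interaction, with 0 calls, had 1 after the shift to a common 75th percentile, 1 with no filter, and 0 to 8 with 1 library left out (6 without Control replicate 1, 8 without Control replicate 2). It could not be estimated without NEC replicate 1 or Control replicate 3. The causes were not tested.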
